A study of Mus musculus with 6 samples.

Results

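Gm38257 is a mouse noncoding locus on chromosome 2. It was examined here with Kif2a, Sptan1 and Ank2, which encode a kinesin, a spectrin and an ankyrin of the neuronal cytoskeleton. They belong to a set of 5 of the 37411 gene rows of the count table, found by their symbols, all of which passed the filter on low counts that left 16233 genes for testing; 4 of the 5 are described. The set was built around Gm38257, chosen by its higher counts after forskolin in these same libraries, so the difference between forskolin and DMSO is given for these genes as a description with its error; whether a gene of the set passed the test applied to all genes is stated, and nothing is read from it.

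The cells were primary hippocampal neurons of CD-1 IGS mice, cultured from postnatal day 0 pups and used after 16 days in vitro. For 30 min, 3 samples (1, 2 and 3) received the solvent DMSO and 3 samples (4, 5 and 6) received 50 µM forskolin in an equal volume. Forskolin activates adenylyl cyclases and so raises cyclic AMP (cAMP), and the comparison asks which transcripts differ soon afterwards. All samples share the strain, age and culture time, the labels give no batch, and they do not say whether the 3 samples of a group came from separate cultures or litters, so p-values measure only the spread between these samples.

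KIF2A is a kinesin of the microtubule-depolymerising class, αII-spectrin (Sptan1) forms tetramers with β-spectrins in the lattice under the neuronal membrane, and ankyrin-B (Ank2) ties that lattice to membrane proteins. Gm38257 is also known as ADEPTR, a long noncoding RNA that has been described in dendrites together with these cytoskeletal proteins. When cAMP rises, protein kinase A phosphorylates CREB, a transcription factor of early activity-dependent genes.

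In GENCODE M21 (GRCm38), Gm38257 (ENSMUSG00000102258.1) is a single exon of 2761 bases at chr2:15056713-15059473 on the plus strand, in the class TEC, which holds loci still awaiting experimental evidence. It is intronic to a protein-coding gene, and the longest run from an ATG to a stop codon in it is 45 codons. The table holds 1 count per gene and the strand setting is not given in the sources used here, so that reads of Gm38257 and of unspliced RNA that covers the same bases cannot be told apart. Kif2a lies at chr13:106958996-107022126 (minus strand), Sptan1 at chr2:29965560-30031451 (plus strand) and Ank2 at chr3:126921612-127499350 (minus strand).

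The ends of Gm38257 are shown because its fold change was the largest of the 4 genes. They are from GENCODE at chr2:15056713-15056952 and chr2:15059234-15059473, on the plus strand.
Gm38257 5′ end: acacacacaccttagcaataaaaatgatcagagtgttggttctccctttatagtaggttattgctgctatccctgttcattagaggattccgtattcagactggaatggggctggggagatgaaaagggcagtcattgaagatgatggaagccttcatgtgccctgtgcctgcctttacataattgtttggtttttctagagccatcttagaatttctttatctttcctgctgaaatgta
Gm38257 3′ end: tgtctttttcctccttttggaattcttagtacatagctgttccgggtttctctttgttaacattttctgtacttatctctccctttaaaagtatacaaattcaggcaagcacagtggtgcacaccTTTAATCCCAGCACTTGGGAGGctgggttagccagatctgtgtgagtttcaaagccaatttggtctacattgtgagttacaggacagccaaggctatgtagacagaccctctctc
Capitals in the 3′ end mark a run of 22 bases that belongs to the B1 family of short interspersed repeats. The same run, on either strand, is in a transcript of 979 of 55450 annotated genes (1.77%), so that short reads from this stretch need not come from Gm38257.

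Gm38257 was low in the DMSO libraries and several-fold higher in each forskolin library. Its counts were 48, 16 and 34 under DMSO (libraries 1, 2 and 3) against 322, 340 and 205 under forskolin (libraries 4, 5 and 6). Scaled to CPM (counts per 1e6 counts of the library, after TMM scaling), these were 1.50, 0.525 and 0.953 CPM, and 6.83, 9.98 and 6.12 CPM. The lowest forskolin library thus lay above the highest DMSO library, and the groups did not overlap. The means were 0.992 ± 0.488 and 7.64 ± 2.06 CPM (SD, n = 3), a ratio of 7.71. The fitted log2 fold change (forskolin over DMSO) was 2.94 ± 0.42 (SE), with a 95% interval from 1.94 to 3.94. This value had rank 107 from the top among 16233 tested genes, whose median log2 fold change was 0.02. The 3 DMSO libraries were themselves spread, with a coefficient of variation of 49.2% at these low counts, against 26.9% in the forskolin libraries. In the authors' deposited table, which holds 132 genes with log2 fold changes from 1.50 to 4.33, Gm38257 has a mean normalised count of 141 and a log2 fold change of 2.30 with a standard error of 0.30, position 32 by fold change. Kif2a, Sptan1 and Ank2 have no row in the authors' deposited table.

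**Figure D1:**
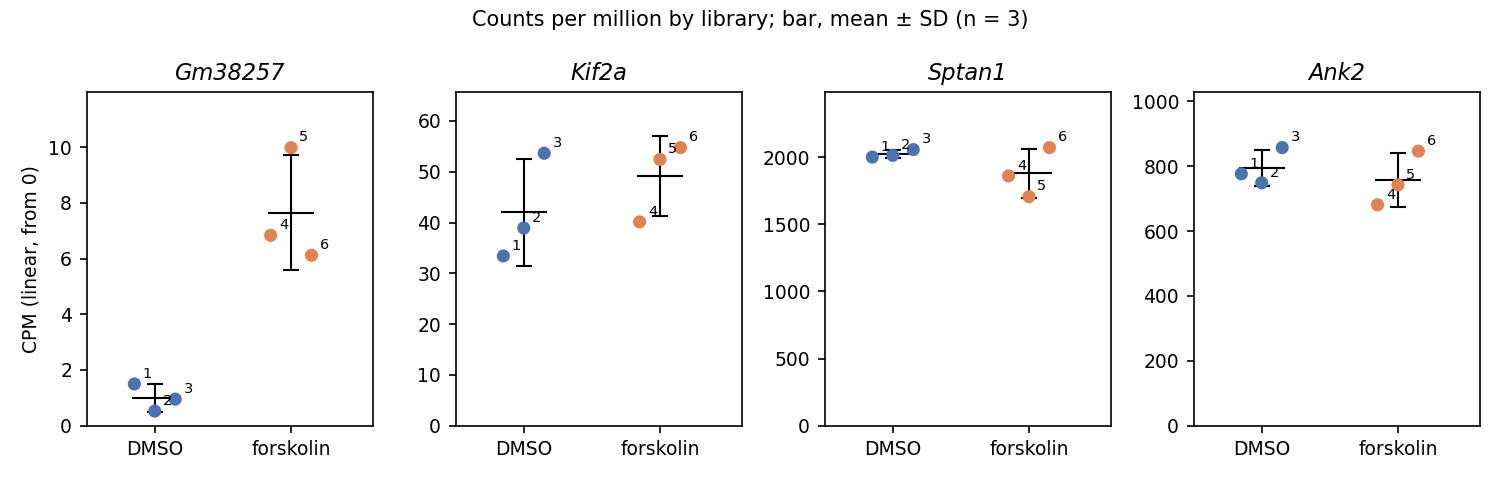
CPM of the 4 genes in each library (points, numbered by library; linear axes from 0) with the mean and SD of each group (bars, n = 3). The forskolin points of Gm38257 lie between 6.12 and 9.98 CPM, above the DMSO points, while the groups overlap for Kif2a, Sptan1 and Ank2.

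Kif2a, the kinesin, overlapped between the groups. Its levels were 33.4, 38.9 and 53.6 CPM under DMSO against 40.1, 52.4 and 54.8 CPM under forskolin. Libraries 3, 5 and 6 were the high ones and libraries 1, 2 and 4 the low ones, a split that crosses the groups. The log2 fold change was 0.22 ± 0.21 (SE), with a 95% interval from -0.27 to 0.72, and -0.25 after a correction for the trend on GC content in the libraries (its GC content is 38.6%, and Gm38257, at 41.6%, had a log2 fold change of 2.59 after it).

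Sptan1, the αII-spectrin, was the most abundant of the 4. Its levels were 2000.5, 2013 and 2056 CPM under DMSO against 1860.3, 1706 and 2071 CPM under forskolin. The DMSO libraries differed by a coefficient of variation of only 1.44%, whereas libraries 4 and 5 lay below all of them and library 6 lay above all of them. The log2 fold change was -0.11 ± 0.16 (SE), with a 95% interval from -0.48 to 0.27.

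Ank2, ankyrin-B, overlapped between the groups, with library 6 again the highest of the forskolin libraries. Its levels were 776, 749 and 857 CPM under DMSO against 681, 742 and 846 CPM under forskolin. The log2 fold change was -0.07 ± 0.15 (SE), with a 95% interval from -0.42 to 0.28. Ank2 counts made up 38.8, 37.2 and 41.7% of Sptan1 counts under DMSO against 36.6, 43.5 and 40.9% under forskolin, so that the ratio of the ankyrin to the spectrin also overlapped between groups.

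Of the 4 genes, 1 (Gm38257) had an edgeR adjusted p under 0.05 and groups that did not overlap. Over the 16233 tested genes, 1.51% had such an adjusted p, 0.172% being higher and 1.34% lower, and 26.5% had non-overlapping groups. By DESeq2, 10.6% of tested genes passed, 4.71% being higher and 5.84% lower. As the contrast was used in choosing the genes, nothing is read from this count. Gm38257 did not pass with the GC trend removed, with library 6 as the only forskolin library, or with any single library other than library 6 left out.

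The 4 genes were expressed at very different levels. As CPM per kb of the longest annotated transcript, the DMSO means were 252 ± 3.64 for Sptan1, 55.5 ± 3.94 for Ank2, 7.92 ± 1.97 for Kif2a and 0.359 ± 0.177 for Gm38257 (SD, n = 3), with no overlap between neighbours in this order. In the forskolin libraries the order was the same, with 234 ± 22.9, 52.9 ± 5.84, 9.26 ± 1.48 and 2.77 ± 0.745 CPM per kb.

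Fos, an immediate early gene that CREB activates, rose from 186, 109 and 100.5 CPM to 830.1, 901 and 447 CPM (log2 fold change 2.46; edgeR, adjusted p = 0.0376), with each forskolin library above all DMSO libraries. It did not pass with the GC trend removed, where no gene did (log2 fold change 2.56, edgeR, adjusted p = 0.161), or with library 6 alone (log2 fold change 1.80, edgeR, adjusted p = 0.0804). Total counts ranged from 28342764 to 47548379. Mitochondrially encoded genes took 14.7 to 24.6% of the counts in the DMSO libraries and 27.8 to 34.6% in the forskolin libraries. Libraries 4 and 5 stood apart in cell type markers. The 12 microglia markers summed to between 23.0 and 35.3 CPM in the DMSO libraries, to 227 and 376 CPM in libraries 4 and 5, and to 25.1 CPM in library 6. The 14 neuron markers, all of them detected, summed to between 4575 and 5812 CPM in the DMSO libraries and to 3352, 3655 and 5245.5 CPM in libraries 4, 5 and 6. The 12 astrocyte markers summed to between 7501 and 8236 CPM in the DMSO libraries and to 8231, 9054 and 7383.5 CPM in libraries 4, 5 and 6, so that these neuronal cultures held glia. For the 12 markers of the oligodendrocyte lineage the sums were 946 to 1022 CPM, and 1219.5, 1684 and 765 CPM. In the astrocyte and the oligodendrocyte list alike, 6 genes had positive and 6 had negative log2 fold changes. In the oligodendrocyte list these ran from -0.84 to 4.25, so that the sums do not speak for each marker. Of the 14 neuron markers 11 were negative, and all 11 tested microglia markers were positive. In bulk RNA, fewer cells of a type and less RNA per cell cannot be told apart.

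Among the forskolin libraries, Gm38257 and the sums of the 3 glial marker lists were all highest in library 5 and lowest in library 6, and the part of these cells in its level was not tested. Library 6, where the microglia and neuron markers lay within the DMSO ranges, held 6.17 times the DMSO mean of Gm38257, against 6.89 and 10.1 times in libraries 4 and 5. Fitted with library 6 as the only forskolin library, its log2 fold change was 2.65, and without library 6 it was 3.06. For Sptan1 and Ank2 only the sign of small values changed. With library 6 alone their log2 fold changes were 0.07 and 0.13, and without it -0.20 ± 0.10 and -0.17 ± 0.11 (SE). The lower values of both in libraries 4 and 5 thus came together with the lower neuron markers there, whose part in them was not tested.

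**Figure D2:**
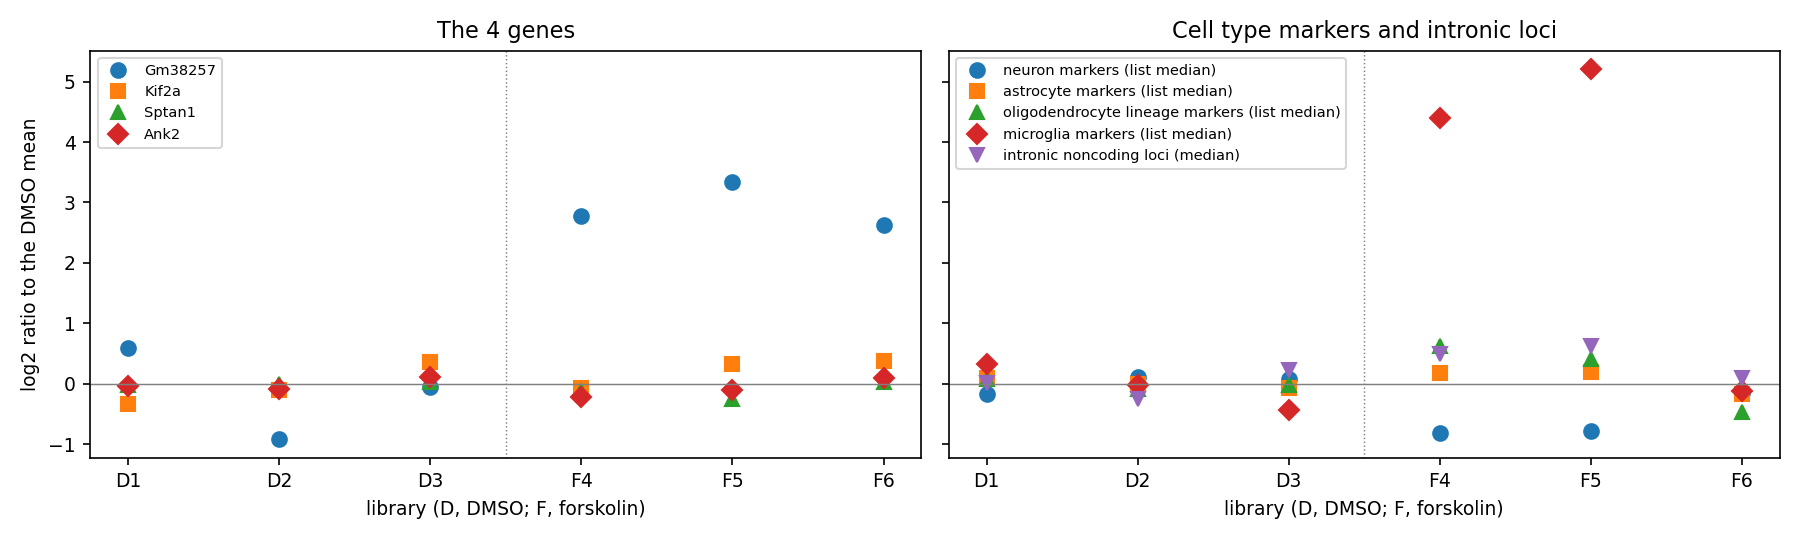
Log2 ratio to the DMSO mean in each library (D, DMSO; F, forskolin) for the 4 genes (left, from CPM) and for the medians of 4 cell type marker lists and of 204 other intronic noncoding loci (right, from log2 CPM with a prior count of 2). Gm38257 lies at 2.78, 3.33 and 2.62 in F4, F5 and F6, whereas the microglia markers lie at 4.40, 5.20 and -0.12.

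To place Gm38257 among loci of its kind, the 204 other tested noncoding loci were taken that are a single exon inside an intron of a tested protein-coding gene on the same strand, of which 180 are of the class TEC. Their median log2 fold change was 0.39, and 148 of the 204 were positive, or 109 with the GC trend removed. The low-count filter keeps a locus that reaches its cut in the libraries of 1 group alone. Gm43953 had 6, 4 and 3 counts under DMSO against 41, 36 and 17 under forskolin. Gm37868 had 2, 2 and 6 against 24, 13 and 33. Both passed through the forskolin libraries. Such loci come out positive by the way they entered, and how many of the 204 did so was not counted. Of the 204, 1 rose by edgeR's test and 0 fell (12 higher and 2 lower by DESeq2). Without library 6, 34 were higher and 4 lower, when 16.5% of all tested genes were higher and 17.1% lower, and with library 6 as the only forskolin library, or with the GC trend removed, 0 passed. Of the 204, 19.6% had forskolin libraries above all DMSO libraries, against 10.2% of all tested genes. This share takes in loci that passed the filter only through the forskolin libraries, so nothing is read from it. As Gm38257 was chosen by its difference in these libraries, its place among the loci is a description. Its log2 fold change was above those of all 204. Its interval includes values of some of them, such as Gm37868 (2.59 ± 0.58, SE) and Gm43953 (2.58 ± 0.46, SE). These 2 were named after their values were seen, and neither passed edgeR's test. With library 6 as the only forskolin library, 1 of the 199 loci that were tested there exceeded Gm38257.

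The shift of the intronic loci was not the same in every library. Relative to DMSO, their median stood at 0.50 and 0.62 (log2) in libraries 4 and 5 but at 0.09 in library 6, where Gm38257 was at 2.67 on the same scale. The DMSO libraries 1, 2 and 3 themselves stood at 0.01, -0.24 and 0.23. The loci have a median GC content of 41.3%, against 49.5% for all tested genes, and with the GC trend removed their median log2 fold change was 0.08.

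**Figure D3:**
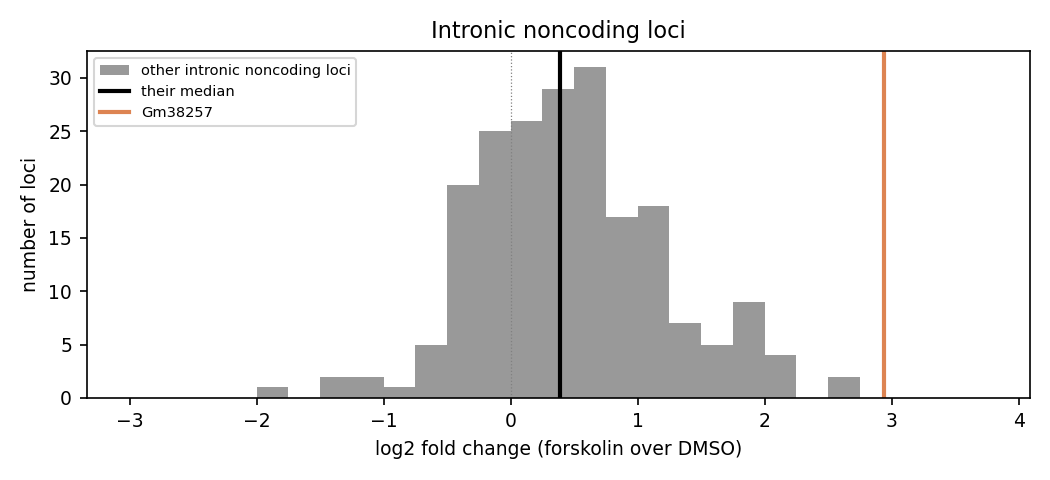
Number of the 204 other intronic noncoding loci (grey bars) by log2 fold change (forskolin over DMSO), with their median of 0.39 (black line) and Gm38257 (orange line). Gm38257, at 2.94, lies to the right of all of them.

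The genes whose log2 CPM was most like that of Gm38257 over the 6 libraries, among 14905 tested genes whose mean count reached 20, were Impg2 (Pearson coefficient 0.992), Fosb (0.992), Egr2 (0.992) and Gm17056 (0.990). Fosb and Egr2 are immediate early transcription factors: Fosb had 11.2, 3.05 and 4.09 CPM with DMSO and 64.9, 78.7 and 47.0 CPM with forskolin, and Egr2 had 10.2, 5.51 and 6.36, and 20.8, 30.6 and 22.1 CPM. Impg2 and Gm17056 had 4 to 11 counts in each DMSO library. Like Gm38257, Fosb and Egr2 were highest in library 1 among the DMSO libraries and in library 5 among the forskolin libraries. These genes were picked for a pattern over the same 6 libraries, so their values and coefficients are a description.

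Related genes were counted in 6 lists that leave out the set itself: ARF and ARL small GTPases, Golgi tethering and sorting genes, kinesins, the spectrin and ankyrin membrane skeleton, microtubule and neurofilament genes, and RNA granule proteins of dendrites. Of 178 tested genes in them, 1 rose and 3 fell by edgeR's test, or 2.25% of the genes, against 1.51% of all tested genes. Without library 6 the count was 96 (37 higher and 59 lower), when 33.6% of all genes passed, and without any other single library it was 0. DESeq2 called 31. With the GC trend removed none passed, and with library 6 as the only forskolin library 1 did, Arl4d. At an unadjusted edgeR p under 0.05, the share of all tested genes was 22.3%. Of the genes named from these lists that did not pass with all libraries, those that passed without library 6 were Cast, Katna1, Arl5c, Gcc2, Vps51, Kif2c, Kif20b, Klc2, Sptb, Sptbn1, Ank1 and Hnrnpa2b1, while Arl5a, Ank3 and Elavl3 did not.

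Among 25 tested ARF and ARL genes the median log2 fold change was 0.01, and 1 rose and 1 fell. Arl4d, a plasma membrane member of the family, rose from 6.09, 4.13 and 4.34 CPM to 28.1, 28.8 and 35.6 CPM (log2 fold change 2.67 ± 0.21 (SE), edgeR, adjusted p = 0.0204), and library 6 was its highest. With the GC trend removed its log2 fold change was 2.91 (edgeR, adjusted p = 0.0638). In the authors' deposited table Arl4d is the one gene of these 6 lists, with a log2 fold change of 2.36. Arf5, a Golgi GTPase with a GC content of 59.9%, fell from 106, 113 and 103 CPM to 72.1, 61.7 and 59.6 CPM (log2 fold change -0.74, edgeR, adjusted p = 0.0406), and its log2 fold change was -0.25 with the GC trend removed (edgeR, adjusted p = 0.412). Arl5a had 45.4, 53.1 and 76.1 CPM with DMSO and 77.7, 84.8 and 80.4 CPM with forskolin. Its groups did not overlap, but by a margin far smaller than the spread of the DMSO libraries, and it did not pass (log2 fold change 0.48, edgeR, adjusted p = 0.214), and its log2 fold change was 0.10 with the GC trend removed. Arl5c had 1.06, 1.11 and 0.701 CPM with DMSO and 1.80, 2.38 and 1.01 CPM with forskolin (log2 fold change 0.85, edgeR, adjusted p = 0.250). Its log2 fold change was 0.12 with library 6 alone and 1.11 without library 6 (edgeR, adjusted p = 0.0339).

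The 16 Golgi tethering and sorting genes, which include the GARP subunits and the AP-4 adaptor, had a median of 0.05, with 0 passing edgeR's test (1 higher and 1 lower by DESeq2, and 2 higher and 2 lower at an unadjusted edgeR p under 0.05). The most positive was Gcc2, a golgin of the trans-Golgi, with 15.4, 18.6 and 24.0 CPM and then 34.4, 56.7 and 30.5 CPM (log2 fold change 1.07, edgeR, adjusted p = 0.116). At the other end was the GARP subunit Vps51, at -0.66 (edgeR, adjusted p = 0.0613) and at -0.12 with the GC trend removed.

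Of 43 other tested kinesin genes, 22 had positive and 21 negative log2 fold changes, with a median of 0.02 and 0 passing edgeR's test (5 higher and 3 lower by DESeq2, and 8 higher and 5 lower at an unadjusted edgeR p under 0.05). Kif2c, the mitotic relative of Kif2a, had 4.15, 3.25 and 3.48 CPM with DMSO and 6.11, 7.57 and 4.30 CPM with forskolin (log2 fold change 0.73, edgeR, adjusted p = 0.183). Kif2b had 0 counts in all 6 libraries. The extremes were Kif20b, a mitotic kinesin, at 2.11 (edgeR, adjusted p = 0.133), and Klc2, a light chain of the transport motor kinesin-1, at -0.79 (edgeR, adjusted p = 0.0537) and at -0.24 with the GC trend removed.

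In the membrane skeleton, 17 of 26 tested genes had negative log2 fold changes, the median was -0.18, and 1 fell (1 higher and 3 lower by DESeq2). The median was -0.03 with library 6 alone and -0.29 without library 6, lower together with the neuron markers of libraries 4 and 5, whose part was not tested. The gene that fell was Sptbn4, the βIV-spectrin of axon initial segments and nodes, which fell from 66.3, 69.1 and 62.9 CPM to 34.5, 29.7 and 30.9 CPM (log2 fold change -1.06 ± 0.11 (SE), edgeR, adjusted p = 0.0204). With a GC content of 63.7%, its log2 fold change was -0.28 with the GC trend removed (edgeR, adjusted p = 0.443). Sptbn1, the βII-spectrin that pairs with αII-spectrin along axons and dendrites, had 1322, 1396 and 1515.5 CPM and then 1139, 1096 and 1539 CPM, the same pattern of libraries as Sptan1 (log2 fold change -0.17, edgeR, adjusted p = 0.618). For Sptb the log2 fold change was -0.72 (edgeR, adjusted p = 0.224).

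In the other ankyrins, as in Ank2, library 6 was the highest of the forskolin libraries. Ank3, ankyrin-G of the axon initial segment, had 149.8, 152 and 184 CPM with DMSO against 100.5, 134 and 169 CPM with forskolin (log2 fold change -0.27, edgeR, adjusted p = 0.456). Ank1 had 15.3, 21.3 and 21.5 CPM, and 13.1, 9.72 and 20.4 CPM (log2 fold change -0.43, edgeR, adjusted p = 0.406). With library 6 alone as the forskolin group, the log2 fold changes of Sptbn1, Ank3 and Ank1 were 0.16, 0.10 and 0.11. Their sign thus changed, as for Sptan1 and Ank2, while the log2 fold change of Sptbn4 was -1.06.

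Microtubule and neurofilament genes were the list with the lowest median, -0.34, and 28 of 34 were negative, and 1 passed by edgeR, with 0 higher and 8 lower by DESeq2 and 1 higher and 12 lower at an unadjusted edgeR p under 0.05. In the fit without library 6, 1 was higher and 23 were lower, when 16.5% of all tested genes were higher and 17.1% lower. With the GC trend also removed these were 0 and 19, against 16% and 16.1% of all tested genes. Camsap3, which binds microtubule minus ends, fell from 28.5, 35.2 and 30.6 CPM to 14.7, 17.4 and 19.0 CPM (log2 fold change -0.88, edgeR, adjusted p = 0.0458), and it was at -0.61 with the GC trend removed (edgeR, adjusted p = 0.329). The list median followed the neuron markers by library: it was -0.51 and -0.49 in libraries 4 and 5 and 0.02 in library 6, against neuron marker medians of -0.81, -0.78 and -0.15. The part of those markers in it was not tested, and Tubb3 and Map2 are in both lists.

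The 34 RNA granule genes had a median of 0.04, and 0 passed edgeR's test (3 higher and 0 lower by DESeq2, and 4 higher and 2 lower at an unadjusted edgeR p under 0.05). Hnrnpa2b1, which carries RNAs along dendrites, was the most positive, with 40.3, 31.3 and 40.6 CPM and then 68.3, 83.6 and 51.2 CPM (log2 fold change 0.85, edgeR, adjusted p = 0.0962). Elavl3, a neuronal RNA-binding protein, was the most negative at -0.33 (edgeR, adjusted p = 0.192), and it was at -0.165 with the GC trend removed.

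**Figure D4:**
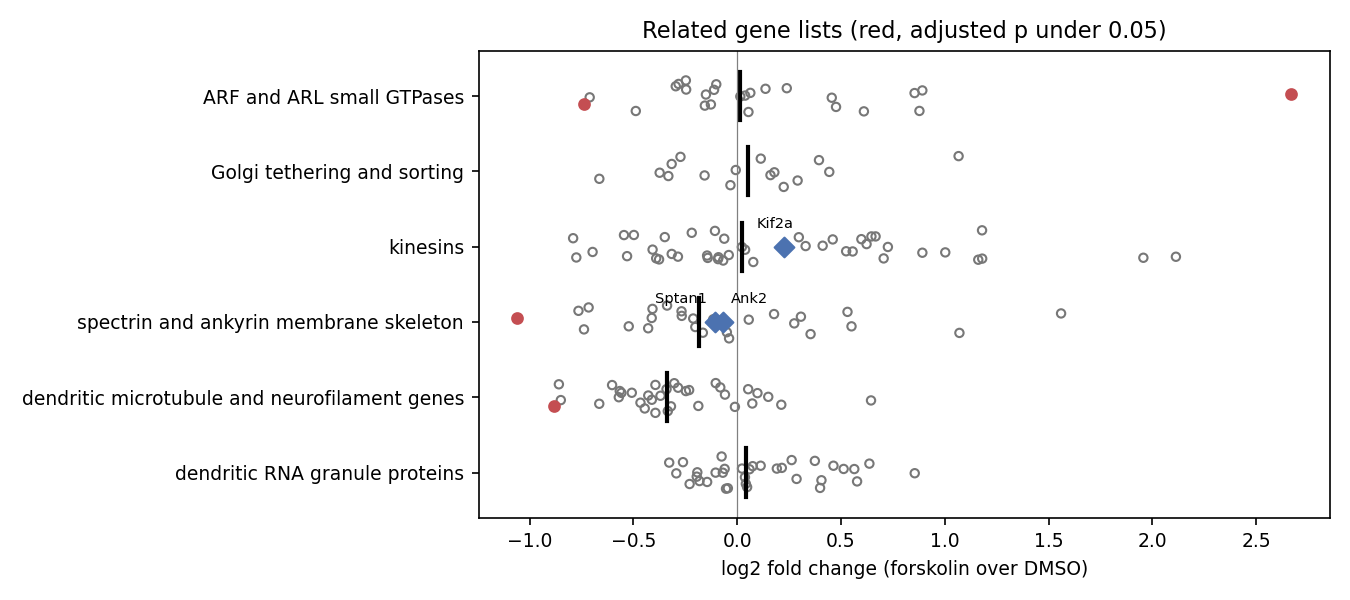
Log2 fold change (forskolin over DMSO) of each tested gene in the 6 lists (open points; red, edgeR adjusted p under 0.05; black line, list median; vertical jitter has no meaning), with Kif2a, Sptan1 and Ank2 as blue diamonds beside their relatives. The red points are Arl4d at 2.67, Arf5 at -0.74, Sptbn4 at -1.06 and Camsap3 at -0.88.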

How the data were processed

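The authors deposited whole-number counts per gene symbol for 6 libraries. RNA was extracted with Trizol and chloroform, per the labels' protocols. The submitters' processing notes name Salmon, DESeq and GRCm38 without giving their roles, so the counts may be rounded estimates; annotation and strand setting are not given in the sources used here. A table of the authors' own comparison was also deposited. Its columns hold, as deposited, the signal (normalised counts averaged over libraries), log2 fold changes and their errors, a test score and p-values; the last 2 were not used.

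Symbols were matched to GENCODE M21 (36174 of 37411 rows, 96.7%). With R 4.3.3 and edgeR 4.0.16, genes passing filterByExpr (minimum count 10, minimum total 15) were scaled with TMM and tested with glmQLFit and glmQLFTest over all 6 libraries. The Benjamini-Hochberg adjustment ran over 16233 genes, and an adjusted p under 0.05 counts as called. Standard errors are the absolute log2 fold change over the square root of F, and 95% intervals use the fit's degrees of freedom. The script was tested on simulated data.

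Alternatives used DESeq2 1.42.0 and limma 3.58.1, other scalings and filters, a lowess correction on GC content (span 0.3, known for 97.1% of tested genes) and each library left out. The genes and lists were chosen with earlier results of these data known. Named genes were the set, fixed paralogs, Fos, up to 4 called genes and both extremes of each list, and the 4 most similar genes to Gm38257; intronic loci were named after their values were seen. Some genes that this rule names are not reported here. Total counts of 28342764 to 47548379 make counting error small except for rarely counted genes such as Gm38257 in the DMSO libraries. Intervals take no account of duplicate reads, since the counts carry no molecular identifiers.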

Additional observations from a re-analysis of the deposited data

How the results depend on the processing

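The log2 fold change of Gm38257 stayed between 2.59 and 3.38 over 18 alternatives and moved by less than its spread between replicates in each. For Kif2a, Sptan1 and Ank2, values that moved by more than that spread were, with the GC trend removed, -0.25 for Kif2a and -0.00374 for Sptan1. With the GC trend removed and library 6 left out the value was -0.47 for Kif2a, which passed as lower there, as 16.1% of all tested genes did. Scaling by library size alone gave -0.21 for Sptan1, and library 6 alone gave 0.0717 for Sptan1 and 0.13 for Ank2. Both settings that involve library 6 alone or the GC correction with library 6 left out were chosen after seeing the data; with 1 forskolin library, it is assumed to vary like the DMSO libraries.

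The number of genes called was 245 in all and 4 in the 6 lists. These counts were 1711 and 31 with DESeq2, 6794 and 104 with limma's quality weights, 137 and 2 with RLE factors, 102 and 2 with upper-quartile factors, 94 and 1 with library 6 alone, and 5432 and 87 with the GC trend removed and library 6 left out. Library size alone called 7 list genes. Increases were 28 of the 245 calls, but 764 of the 1711 with DESeq2. With the GC trend removed both counts were 0, with 1947 genes at an unadjusted p under 0.05. With single libraries left out they ranged from 0 to 5698 and from 0 to 96, being 0 without each library but library 6, with 1945 to 3216 genes at an unadjusted p under 0.05. The cause was not tested. No paired analysis was possible because the libraries are numbered 1 to 6 across both groups. Depth limits Gm38257 in the DMSO libraries, at 16 to 48 counts.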

Other observations

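Among the intronic noncoding loci, Gm37084, in an intron of the kinase gene Mapkapk2, was the 1 other locus that passed edgeR's test. It had 1.15, 1.15 and 1.43 CPM with DMSO and 3.80, 4.55 and 3.37 CPM with forskolin (log2 fold change 1.65, edgeR, adjusted p = 0.0381; not passing with the GC trend removed or with library 6 as the only forskolin library), while Mapkapk2 had 45.2, 44.0 and 43.2 CPM and 53.7, 50.9 and 41.2 CPM.

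Cast, the inhibitor of the calpains that cleave spectrin, was the most positive gene of the membrane skeleton list. It had 3.06, 1.93 and 2.38 CPM with DMSO and 8.06, 11.0 and 2.66 CPM with forskolin (log2 fold change 1.56, edgeR, adjusted p = 0.159), and Kif20b had 0.406, 0.492 and 0.785 CPM and 1.78, 4.52 and 1.04 CPM. Both were highest in libraries 4 and 5, which also held the most microglia marker RNA. The part of microglia in their levels was not tested. Katna1, a subunit of the microtubule-severing enzyme katanin, was the most positive of the microtubule genes, at 8.80, 6.62 and 6.45 CPM and 13.9, 11.4 and 8.86 CPM (log2 fold change 0.64, edgeR, adjusted p = 0.178).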
